A study of Mus musculus with 36 samples.

Results

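The stress bZIP factors of the ATF and C/EBP families were described across a set of mouse fibroblast libraries. The members were Atf3, Atf4, Atf5, Ddit3 (which encodes CHOP), Cebpa, Cebpb, Cebpd and Cebpg. They were taken by name from the count table, and the rule uses no measured value. The names were, however, chosen with earlier results of these data known. These are 8 of the 36856 gene symbols in the table, of which 28037 had a count in at least 1 library, and all 8 passed the filter on low counts that left 16065 genes for testing.

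The study measured RNA by bulk sequencing in MEF, the mouse embryonic fibroblast line named in the labels, with the genotypes WT and PERK -/-. Each genotype was given 6 treatments: DMSO, thapsigargin, BtdCPU, halofuginone, BtdCPU together with thapsigargin, and halofuginone together with thapsigargin. Each of the 12 groups held 3 libraries, 36 in all. All groups are of 1 cell type, the DMSO cells are the vehicle control of each genotype, and no dose, time or batch is given in the labels. The labels do not say how many clones stand behind either genotype, or whether the 3 replicates are separate cultures, so the p-values measure only the spread between these libraries. By the title of the series, the question is what a compound that activates another kinase of the integrated stress response does in cells that lack PERK.

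As background, the integrated stress response is set off when a kinase phosphorylates the translation factor eIF2alpha. PERK (gene Eif2ak3) does so when unfolded proteins build up in the endoplasmic reticulum, HRI on heme loss and mitochondrial stress, and GCN2 when uncharged tRNA accumulates. Thapsigargin empties the calcium store of the endoplasmic reticulum and thereby activates PERK, BtdCPU is known as an activator of HRI, and halofuginone blocks prolyl-tRNA synthetase and activates GCN2. Translation of most mRNAs then falls, while that of Atf4, whose leader carries upstream open reading frames, rises. ATF4 and the proteins made from its target genes bind DNA as dimers through a basic region and a leucine zipper (bZIP). ATF4 pairs with C/EBP partners at composite C/EBP-ATF elements, CHOP is itself a C/EBP relative and a target of ATF4, ATF3 and ATF5 are further ATF4 targets, and C/EBPgamma is a short partner that forms dimers with ATF4. C/EBPalpha, C/EBPbeta and C/EBPdelta are best known from adipocyte differentiation and from the acute-phase response.

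The sequence upstream of the start is shown for the members whose levels differ most between groups (Atf3 and Ddit3), for Atf4 as the hub of the response and for Cebpa as a contrast among the C/EBP genes. Sequences are from RefSeq, build GRCm38.p6, and run 5′ to 3′ on the gene's strand over the 250 bases before the start. Capitals mark the matches to 5 motifs searched on both strands: the C/EBP-ATF response element core TGATGNAA, the cyclic AMP response element with 1 letter left free TNACGTCA, the CCAAT box CCAAT, the TATA box TATAAA, and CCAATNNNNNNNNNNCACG, the endoplasmic reticulum stress response element with 1 letter left free. The last of these was added after the sequence had been seen.
Atf3, chr1:191183334-191183583, minus strand: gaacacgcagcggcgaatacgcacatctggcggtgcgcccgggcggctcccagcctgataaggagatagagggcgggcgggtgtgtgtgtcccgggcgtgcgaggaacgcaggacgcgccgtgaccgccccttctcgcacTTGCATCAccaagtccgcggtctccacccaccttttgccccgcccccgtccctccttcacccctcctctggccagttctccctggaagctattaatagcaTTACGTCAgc
Atf4, chr15:80254934-80255183, plus strand: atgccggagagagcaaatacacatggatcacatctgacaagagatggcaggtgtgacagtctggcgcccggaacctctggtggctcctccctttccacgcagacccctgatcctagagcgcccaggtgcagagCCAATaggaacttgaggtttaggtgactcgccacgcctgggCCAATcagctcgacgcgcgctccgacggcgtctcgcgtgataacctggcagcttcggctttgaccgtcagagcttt
Ddit3, chr10:127290543-127290792, plus strand: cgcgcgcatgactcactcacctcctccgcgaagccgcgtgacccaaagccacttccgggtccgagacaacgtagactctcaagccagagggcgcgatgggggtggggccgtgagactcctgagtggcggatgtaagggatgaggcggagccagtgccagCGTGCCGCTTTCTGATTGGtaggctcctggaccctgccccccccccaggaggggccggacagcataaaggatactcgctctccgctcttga
Cebpa, chr7:35119043-35119292, plus strand: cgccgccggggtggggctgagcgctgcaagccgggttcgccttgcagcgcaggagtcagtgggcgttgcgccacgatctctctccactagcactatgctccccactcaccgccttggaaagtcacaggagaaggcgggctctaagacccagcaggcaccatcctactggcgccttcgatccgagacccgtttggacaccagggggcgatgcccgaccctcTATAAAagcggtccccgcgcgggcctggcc
The search itself ran over windows of 300 bases, which add the 50 bases after the start, and 7 of the 8 members had a window (Cebpd did not). The Atf3 window held TTGCATCA, the reverse strand of the C/EBP-ATF core, at positions -110 to -103 from the start, and TTACGTCA at -10 to -3. These motifs occurred in 3.97% and 2.93% of all 32851 windows. The Ddit3 window held the relaxed stress response element, 5′ to 3′ as CGTGCCGCTTTCTGATTGG, at -91 to -73, with its CCAAT box (read as ATTGG) at the same place, a motif found in 0.265% of windows. The strict form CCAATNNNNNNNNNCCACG, found in 0.119% of windows, and the C/EBP palindrome TTGCGCAA, found in 0.183%, matched no member. A CCAAT box lay in a window of 5 members (Atf3, Atf4, Atf5, Cebpg and Ddit3) against 37.4% of all windows. Atf5 alone had a window 1 and a window 2, and its box lay in window 2 only. A TATA box lay in those of Cebpa (-30 to -25) and Cebpb (22 to 27, after the start) against 13.6%. A match is a description of letters, not of a bound site.

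The leaders of the mRNAs were read from GENCODE vM21, also on GRCm38, with 1 principal transcript a gene. An AUG upstream of the start codon was present in 6 members: 4 in Cebpg, 3 in Atf4, 2 each in Atf5 and Ddit3, and 1 each in Atf3 and Cebpa, while Cebpb and Cebpd had 0. Of 20574 genes with a leader, 55.1% had at least 1 and 34.3% at least 2. In Atf4 and in Atf5, 1 upstream AUG opens a frame that runs past the start codon, the arrangement known for the translational control of both. Such a frame was present in 18.0% of genes.

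Library totals ran from 32454257 to 37178107 counts, and 13251 to 14499 genes had at least 10 counts in a library. Eif2ak3, the gene that is deleted, had a mean of 31.1 CPM ± 1.10 (SD, n = 3) under DMSO in WT cells and of 9.95 ± 0.760 in PERK -/- cells. It was lower in PERK -/- than in WT cells under each treatment and was still detected, and the part of the gene that is deleted is not given. CPM are the usual depth-scaled counts, here over library sizes adjusted by TMM. Fibroblast markers were present (12 of 12 in the table, summed 14256 to 39791 CPM, with Lum at 0 in some libraries). Macrophage markers (4 of 5 in the table) summed to 2.97 to 23.0 CPM, with the highest group mean, 19.3 CPM, in PERK -/- cells on BtdCPU with thapsigargin, and Csf1r gave most of it. Epithelial markers summed to 0.114 to 23.5 CPM, with the highest group mean, 19.4 CPM, in WT cells on halofuginone, through Krt8 and Krt18, while Epcam stayed at or under 0.169 CPM. Endothelial markers summed to 0.248 to 5.33 CPM, adipocyte markers to 0.368 to 6.52 (Plin1 and Lep at 0 in every library), skeletal muscle markers to 0 to 0.648 and neural markers to 107 to 277. The part of such signals in the results was not tested. In bulk RNA, fewer cells of a type and less RNA per cell cannot be told apart. The WT BtdCPU replicate 2 library stood apart from its group: it held 457 Atf3 counts against 1020 and 1053 in the other replicates and 2500 Ddit3 counts against 4723 and 4354. Over all tested genes, its root-mean-square distance in log2 CPM from the rest of its group was 0.595, against 0.498 and 0.506. The largest such distance of any library was 0.617, for WT halofuginone replicate 3.

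An overlapping gene on the opposite strand is in the table for 4 members: Ddit3 overlaps Mars, Atf5 overlaps Nup62 and Il4i1, Cebpb overlaps Tmem189 and Cebpd overlaps Spidr. Whether counting used the strand is not given in the sources used here, so reads of such a pair cannot be told apart. Mars, a methionyl-tRNA synthetase gene, had 328 CPM in WT DMSO and 415 CPM in WT thapsigargin cells (log2 change 0.34, SE 0.08), and its log2 changes in the comparisons of 2 groups ran from -0.10 to 0.68. Nup62 ran from -0.16 to 0.55, Tmem189 from -0.53 to 0.28 and Spidr from -0.32 to 0.20, while Il4i1 was too low to be tested.

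In unstressed cells, PERK -/- fibroblasts held more Atf3, Atf4 and Ddit3 RNA than WT cells and less Atf5, Cebpd and Cebpa. Of the 8 members, 3 were higher and 3 lower, where 24.6% of the 16065 genes tested were called higher and 24.9% lower. "Called" here means an adjusted p below 0.05 in edgeR's quasi-likelihood test with Benjamini-Hochberg adjustment over all tested genes. Set per kilobase of merged exons, which allows genes to be compared, the members of WT DMSO cells ranked Atf4 (153 CPM per kb), Atf5 (62.4), Cebpb (43.9), Cebpd (8.78), Ddit3 (7.94), Cebpg (1.76), Cebpa (1.07) and Atf3 (0.534). In PERK -/- DMSO cells Atf4 led with 247 CPM per kb, Cebpb (38.1) stood above Atf5 (25.7), and Ddit3 (12.1) above Cebpd (2.35).
Atf4, the hub, read 371, 393 and 317 CPM in the 3 WT DMSO libraries and 533, 646 and 566 CPM in the PERK -/- ones, a log2 difference of 0.69 (SE 0.11, edgeR adjusted p = 2.67e-06). The groups did not overlap. The share of all tested genes without such overlap is not given, so overlap here and below is a description of single genes. Atf5, which encodes a factor tied to the mitochondrial stress response, went the other way, with 119, 143 and 112 CPM in WT and 52.0, 56.0 and 45.5 CPM in PERK -/- libraries (log2 difference -1.28, SE 0.12, adjusted p = 9.65e-11). Every PERK -/- library lay below every WT library.
Cebpa, the C/EBP of terminally differentiated fat and liver cells, read 2.74, 2.95 and 2.79 CPM in WT and 0.437, 0.634 and 0.377 CPM in PERK -/- cells, the latter resting on 14 to 23 counts a library (log2 difference -2.54, SE 0.46, adjusted p = 2.9e-05). Cebpd, an early C/EBP of the inflammatory and adipogenic programmes, read 34.7, 41.3 and 22.7 against 7.38, 12.1 and 6.94 CPM (log2 difference -1.90, SE 0.25, adjusted p = 1.73e-07). Neither pair of groups overlapped. Atf3 differed by 1.18 (SE 0.28, adjusted p = 0.000662) and Ddit3 by 0.61 (SE 0.21, adjusted p = 0.0185) on the log2 scale. The call on Ddit3 was lost without WT DMSO replicate 3 (0.47, adjusted p = 0.108) and without PERK -/- DMSO replicate 1 (0.56, adjusted p = 0.059). For Cebpb (-0.20, 95% interval -0.58 to 0.17) and Cebpg (0.23, interval -0.07 to 0.52) no difference was called.

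**Figure D1:**
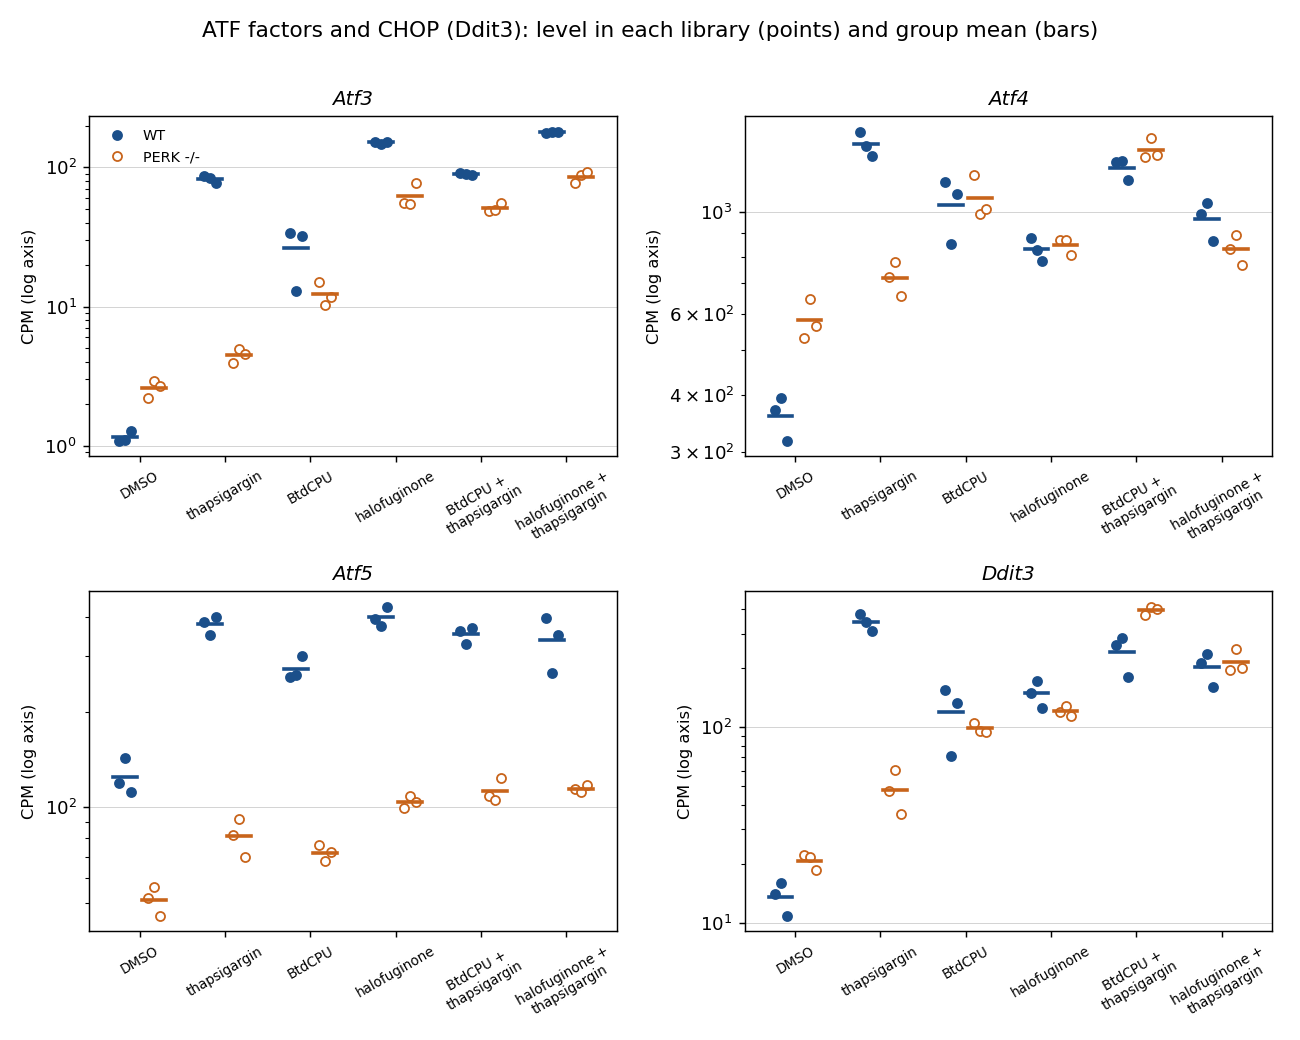
Level of Atf3, Atf4, Atf5 and Ddit3 in each library (points, CPM on a log axis) and group mean (bars) for 6 treatments in WT (filled) and PERK -/- cells (open), 3 libraries a group. Under thapsigargin the WT means of Atf3 and Ddit3 are 83.2 and 345 CPM and the PERK -/- means 4.48 and 47.8 CPM, while with BtdCPU added the PERK -/- means are 51.1 and 396 CPM.

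In WT cells thapsigargin raised 6 of the 8 factors, Atf3 and Ddit3 the most, and lowered Cebpd. In all, 24.9% of tested genes were called higher and 22.7% lower in that comparison. Atf4 went from 371, 393 and 317 CPM in DMSO to 1501, 1395 and 1327 CPM, a log2 change of 1.97 (SE 0.11, edgeR adjusted p = 3.31e-15). Atf3, a factor that can repress as well as activate its targets, went from 1.09, 1.10 and 1.27 CPM, or 38 to 41 counts a library, to 87.5, 84.6 and 77.5 CPM (log2 change 6.17, SE 0.26, adjusted p = 2.74e-18). Ddit3, whose product CHOP is known for its part in cell death under lasting stress, went from 13.9, 16.0 and 10.8 to 381, 345 and 309 CPM (log2 change 4.66, SE 0.24, adjusted p = 4.49e-16). For these 3 genes every treated library lay above every DMSO library. Atf5 rose by 1.60 (SE 0.12) to 378 CPM ± 24.9 (SD, n = 3), Cebpg by 1.34 (SE 0.14) to 25.1 ± 3.31 CPM, and Cebpb by 0.85 (SE 0.18) to 119 ± 33.9 CPM, with adjusted p of 1.43e-12, 3.77e-09 and 0.000278. The Cebpb groups lay close together: the lowest treated library read 82.0 CPM and the highest DMSO library 82.8 CPM. Cebpd fell from 34.7, 41.3 and 22.7 to 13.3, 16.4 and 9.80 CPM (log2 change -1.32, SE 0.25, adjusted p = 4.85e-05), with no overlap. Cebpa changed by 0.45 (interval -0.36 to 1.26) and was not called. Per kilobase, the order in WT thapsigargin cells was Atf4 (597 CPM per kb), Ddit3 (201), Atf5 (190), Cebpb (79.3), Atf3 (38.6), Cebpg (4.46), Cebpd (3.51) and Cebpa (1.47).

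The same treatment gave smaller changes of Atf3, Atf4, Atf5, Ddit3 and Cebpg in PERK -/- cells. There Atf3, Atf4, Atf5 and Ddit3 were called higher and Cebpd lower, where 15.2% of tested genes were called higher and 12.7% lower. Atf3 read 2.19, 2.92 and 2.69 CPM in DMSO and 3.90, 4.96 and 4.57 CPM with thapsigargin (log2 change 0.78, SE 0.23, edgeR adjusted p = 0.0105). Ddit3 read 22.2, 21.6 and 18.5 CPM in DMSO and 47.4, 60.3 and 35.8 CPM with thapsigargin (1.20, SE 0.21, adjusted p = 4.28e-05). Neither gene's groups overlapped, and the thapsigargin libraries stood well below those of WT. Atf4 rose by 0.31 (SE 0.11, adjusted p = 0.0293) and Atf5 by 0.67 (SE 0.12, adjusted p = 4.36e-05). Cebpd fell by 1.16 on the log2 scale (SE 0.27, adjusted p = 0.00112), from 7.38, 12.1 and 6.94 to 3.69, 4.83 and 3.31 CPM. Cebpb just missed the threshold (0.48, SE 0.18, adjusted p = 0.0502), although its groups did not overlap. Cebpg read 0.07 (interval -0.22 to 0.36) and Cebpa 0.66 (interval -0.34 to 1.67).
The difference between the genotypes in the response to thapsigargin was tested directly as an interaction. It was negative, that is, the response was smaller in PERK -/- cells, for 5 members, where 19.5% of genes were called higher and 18.6% lower in the interaction. The log2 differences were -5.39 (SE 0.34) for Atf3, -3.46 (SE 0.30) for Ddit3, -1.66 (SE 0.15) for Atf4, -1.28 (SE 0.20) for Cebpg and -0.94 (SE 0.16) for Atf5. For Cebpd the difference was 0.16 (interval -0.57 to 0.90) for Cebpb -0.38 (interval -0.90 to 0.15) and for Cebpa 0.21 (interval -1.07 to 1.49), none of them called. The PERK -/- calls rested on few libraries in 2 genes. Atf3 lost its call without PERK -/- DMSO replicate 1 (0.67, adjusted p = 0.0622) or without thapsigargin replicate 2 (0.65, adjusted p = 0.0638), and Atf4 lost it without DMSO replicate 1 (0.25, adjusted p = 0.147), DMSO replicate 3 (0.25, 0.15), thapsigargin replicate 1 (0.30, 0.0697) or thapsigargin replicate 2 (0.20, 0.252), as well as with no filter on low counts (0.28, 0.0846).

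BtdCPU alone raised the same 6 named factors in each genotype: Atf3, Atf4, Atf5, Ddit3, Cebpb and Cebpg. In WT cells 12.9% of tested genes were called higher and 9.31% lower, and in PERK -/- cells 2.55% and 1.04%. Atf4 reached 1163, 855 and 1096 CPM in WT and 1209, 993 and 1016 CPM in PERK -/- libraries, log2 changes of 1.53 (SE 0.11) and 0.88 (SE 0.11) from DMSO levels that differed. The treated libraries of the 2 genotypes overlapped. Ddit3 reached 156, 70.9 and 133 CPM in WT (3.14, SE 0.22, edgeR adjusted p = 5e-12) and 105, 95.8 and 94.8 CPM in PERK -/- cells (2.25, SE 0.21, adjusted p = 2.04e-08). Atf3 reached 33.6, 13.0 and 32.1 CPM in WT (4.51, SE 0.25) and 15.0, 10.2 and 11.7 CPM in PERK -/- cells (2.24, SE 0.22). The low WT library, replicate 2, lay within the PERK -/- range for Atf3 and below it for Ddit3. The rise of Cebpg was 1.31 (SE 0.14) in WT against 0.85 (SE 0.14) in PERK -/- cells. Given in the same order, Atf5 rose by 1.13 (SE 0.12) and 0.49 (SE 0.12), and Cebpb by 0.89 (SE 0.18) and 0.78 (SE 0.18). The PERK -/- call on Atf5 was lost without DMSO replicate 3 (0.41, adjusted p = 0.0902) or BtdCPU replicate 1 (0.45, 0.0666), and that on Cebpb without DMSO replicate 3 (0.70, 0.0724), BtdCPU replicate 2 (0.73, 0.0531) or BtdCPU replicate 3 (0.73, 0.0545). Neither Cebpd (0.14, interval -0.38 to 0.65) nor Cebpa (-0.62, interval -1.74 to 0.50) was called in PERK -/- cells.
Tested directly, the response to BtdCPU was called different between the genotypes in Atf3 (-2.27, SE 0.34, adjusted p = 0.000395) and not in the other members, where 0.0373% of genes were called higher and 0.162% lower in this interaction. Atf4 (-0.64, interval -0.95 to -0.34), Atf5 (-0.64, interval -0.97 to -0.30), Ddit3 (-0.89, interval -1.49 to -0.29) and Cebpg (-0.46, interval -0.87 to -0.05) had adjusted p of 0.0647, 0.0972, 0.249 and 0.434, and an unadjusted p below 0.05. The interval was -0.65 to 0.41 for Cebpb (-0.12), -0.04 to 1.39 for Cebpd (0.67) and -1.96 to 0.81 for Cebpa (-0.57). The count rests on WT BtdCPU replicate 2: without it 5 members were called, with Atf4 at -0.76 (adjusted p = 0.00153), Atf5 at -0.67 (0.0189), Ddit3 at -1.16 (0.00631) and Cebpd at 1.17 (0.0198). Without PERK -/- BtdCPU replicate 1, Atf4 was called at -0.73 (adjusted p = 0.0428), and Atf3 was not called when the fit held no groups but those compared (-2.26, adjusted p = 0.143).

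Halofuginone alone gave the highest Atf3 and Cebpg levels of the single treatments. The same 6 factors rose in WT cells, where 34.7% of tested genes were called higher and 33.4% lower. Of the PERK -/- members 7 rose, with Cebpd added, and Cebpa fell, where 21.2% of genes were called higher and 21.0% lower. Atf3 reached 153, 148 and 154 CPM in WT (log2 change 7.04, SE 0.26, edgeR adjusted p = 1.29e-19) and 55.7, 55.0 and 77.6 CPM in PERK -/- cells (4.59, SE 0.23, adjusted p = 1.12e-15). Cebpg reached 52.4, 53.6 and 43.1 CPM in WT (2.33, SE 0.15, adjusted p = 8.3e-15) and 38.7, 38.0 and 35.5 CPM in PERK -/- cells (1.69, SE 0.14, adjusted p = 5.57e-11). For both genes the WT libraries lay above the PERK -/- ones without overlap. Ddit3 rose by 3.45 (SE 0.23) to 149 CPM in WT and by 2.54 (SE 0.22) to 121 CPM in PERK -/- cells. Atf4 rose by 1.20 (SE 0.11) to 830 CPM and by 0.55 (SE 0.11) to 849 CPM, and Atf5 by 1.68 (SE 0.12) to 399 CPM and by 1.03 (SE 0.12) to 104 CPM. The Atf4 means of the 2 genotypes lay within 1 SD of each other after treatment, while those of Atf5 did not. For Cebpb the rises were 0.69 (SE 0.18) and 1.19 (SE 0.18).
The interaction was called negative in 5 members and positive in none, where 17.5% of genes were called higher and 17.5% lower. It read -2.45 (SE 0.33) for Atf3, -0.91 (SE 0.29) for Ddit3, -0.66 (SE 0.15) for Atf4, -0.65 (SE 0.16) for Atf5 and -0.64 (SE 0.20) for Cebpg. Ddit3 lost the call without WT DMSO replicate 3 (-0.77, adjusted p = 0.0522). For Cebpb the interaction was 0.51 (interval -0.02 to 1.04, adjusted p = 0.126), and without PERK -/- halofuginone replicate 3 it was called at 0.73 (adjusted p = 0.0267). Cebpd (0.40, interval -0.30 to 1.11) and Cebpa (-1.50, adjusted p = 0.112) were not called. Scaled by library size alone, the median log2 change of all genes moved to -0.11 in WT cells on halofuginone and to 0.105 in the interaction, so the members' changes there would be read against those medians. No member's call in these comparisons changed with that scaling.

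**Figure D2:**
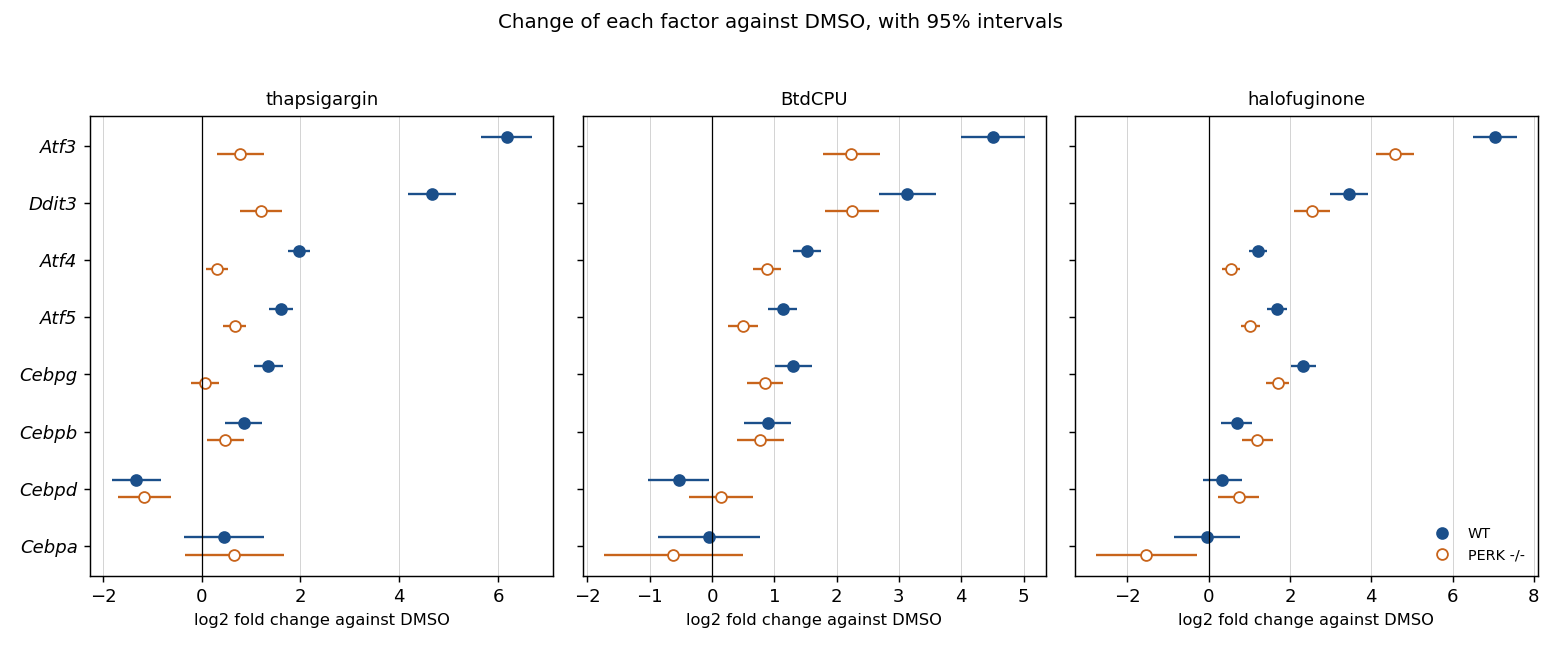
Log2 fold change of each factor against DMSO of the same genotype under thapsigargin, BtdCPU and halofuginone, in WT (filled) and PERK -/- cells (open), with 95% intervals from edgeR. Under thapsigargin Atf3 lies at 6.17 in WT and 0.78 in PERK -/- cells, and Cebpd lies below 0 in each.

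Against thapsigargin alone, BtdCPU together with thapsigargin brought no member past the threshold in WT cells, while in PERK -/- cells 6 were higher. The WT counts were 0 higher and 0 lower (1.29% of tested genes were called higher and 1.02% lower by edgeR). A count of 0 among the 8 members is near that share. At an unadjusted p below 0.05 there was 1 member, Ddit3 (-0.51, interval -0.92 to -0.09, adjusted p = 0.184), among 2727 genes, and DESeq2 called 0 members too. Ddit3 read 264, 285 and 180 CPM with BtdCPU and 381, 345 and 309 CPM without. Its groups did not overlap, nor did those of Atf3, Atf4 and Cebpg, although none of them was called. With no filter on low counts Ddit3 was called (-0.52, adjusted p = 0.00112). The interval of the difference was -0.27 to 0.48 for Atf3, -0.39 to 0.05 for Atf4 and -0.34 to 0.13 for Atf5. Among the C/EBP genes, Cebpg read 0.28 (SE 0.14, adjusted p = 0.298), Cebpd 0.26 (interval -0.24 to 0.77), Cebpb -0.22 (interval -0.59 to 0.15) and Cebpa -0.45 (interval -1.26 to 0.36).
Added to thapsigargin in PERK -/- cells, BtdCPU raised 6 members and lowered Cebpa, where 17.3% of tested genes were called higher and 18.3% lower. Ddit3 went from 47.4, 60.3 and 35.8 CPM with thapsigargin to 374, 413 and 400 CPM with both (log2 change 3.05, SE 0.22, edgeR adjusted p = 7.44e-12). Of its 3 libraries, the lowest lay within the range of WT cells on thapsigargin (309 to 381 CPM) and the others above it. The group had the highest Ddit3 mean of all 12. Atf3 went from 3.90, 4.96 and 4.57 to 48.8, 49.3 and 55.3 CPM (3.51, SE 0.22, adjusted p = 1.62e-13), below the WT thapsigargin libraries (77.5 to 87.5 CPM). Atf4 went from 725, 781 and 656 to 1320, 1456 and 1335 CPM (0.93, SE 0.11, adjusted p = 5.32e-08), a range that overlapped that of WT cells on thapsigargin. Atf5 rose by 0.47 (SE 0.12) to 113 CPM, against 378 CPM in WT cells on thapsigargin. Cebpg rose by 1.21 (SE 0.14) to 28.0 CPM and Cebpb by 0.82 (SE 0.18) to 141 CPM, its highest mean in the study. Cebpa fell by 1.81 on the log2 scale (SE 0.55, adjusted p = 0.0104), on 5 to 13 counts a library against 21 to 42. That call was lost without thapsigargin replicate 1 (-1.41, adjusted p = 0.0804), or without replicate 1 (-1.60, 0.0543) or replicate 3 (-1.52, 0.064) of the combined treatment. Cebpd was not called (-0.21, interval -0.77 to 0.36).
The difference between genotypes in what BtdCPU added was called positive in 6 members, where 10.7% of genes were called higher and 10.1% lower, and the split of all calls moved from 51.6% to 41.4% higher with scaling by library size alone. It was 3.55 (SE 0.29) for Ddit3, 3.41 (SE 0.28) for Atf3, 1.10 (SE 0.15) for Atf4, 1.04 (SE 0.26) for Cebpb, 0.93 (SE 0.20) for Cebpg and 0.57 (SE 0.16) for Atf5. Cebpd (-0.47, interval -1.23 to 0.28) and Cebpa (-1.36, interval -2.75 to 0.03) were not called. This interaction shares its thapsigargin groups with the one for thapsigargin over DMSO, so the 2 are not independent. The split of higher calls also moved with that scaling in the WT comparisons with BtdCPU, from 58.1% to 45.1% against DMSO and from 55.9% to 80.7% over thapsigargin.

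Halofuginone over thapsigargin changed members in each direction in WT cells: Atf3, Cebpd and Cebpg were higher and Atf4 and Ddit3 lower, where 22.8% of tested genes were called higher and 22.5% lower. Atf3 went from 87.5, 84.6 and 77.5 to 176, 179 and 181 CPM (log2 change 1.10, SE 0.19, edgeR adjusted p = 1.42e-05), its highest levels in the study. Ddit3 went from 381, 345 and 309 to 212, 238 and 160 CPM (-0.76, SE 0.20, adjusted p = 0.00256). Atf4 went from 1501, 1395 and 1327 to 992, 1050 and 865 CPM (-0.54, SE 0.11, adjusted p = 0.000119). None of these groups overlapped, so Atf3 moved apart from Atf4 and Ddit3 here. Cebpg rose by 0.93 (SE 0.14) to 47.9 CPM and Cebpd by 1.24 (SE 0.25) to 31.0 CPM. Atf5 was not called (-0.17, interval -0.40 to 0.07), but was at -0.30 (adjusted p = 0.0485) without replicate 1 of the combined treatment. Cebpb (-0.11, interval -0.48 to 0.26) and Cebpa (-0.54, interval -1.35 to 0.27) were not called.
Halofuginone over thapsigargin in PERK -/- cells raised 6 members and lowered none, where 25.2% of tested genes were called higher and 27.5% lower. Atf3 rose by 4.26 (SE 0.22) to 77.6, 88.3 and 92.1 CPM, Ddit3 by 2.18 (SE 0.21) to 195, 252 and 201 CPM, and Cebpd by 2.46 (SE 0.27) to 25.0, 19.6 and 20.3 CPM. Each of the treated libraries lay above the thapsigargin libraries of that gene. Cebpg rose by 1.69 (SE 0.14), Cebpb by 0.78 (SE 0.18) and Atf5 by 0.50 (SE 0.12). Atf4 was not called (0.21, interval -0.01 to 0.42, adjusted p = 0.107), with 832, 893 and 768 CPM against 725, 781 and 656 CPM, although it was called without thapsigargin replicate 2 (0.30, 0.0392) or replicate 3 of the combined treatment (0.29, 0.0474). The interaction was positive in 7 members, where 15.9% of genes were called higher and 16.9% lower: 3.16 (SE 0.28) for Atf3, 2.94 (SE 0.29) for Ddit3, 1.22 (SE 0.36) for Cebpd, 0.89 (SE 0.26) for Cebpb, 0.76 (SE 0.20) for Cebpg, 0.74 (SE 0.15) for Atf4 and 0.66 (SE 0.16) for Atf5. For Cebpa it was -0.56 (interval -1.88 to 0.75), not called. This interaction shares its thapsigargin groups with those for thapsigargin over DMSO and for BtdCPU over thapsigargin, so they are not independent.

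**Figure D3:**
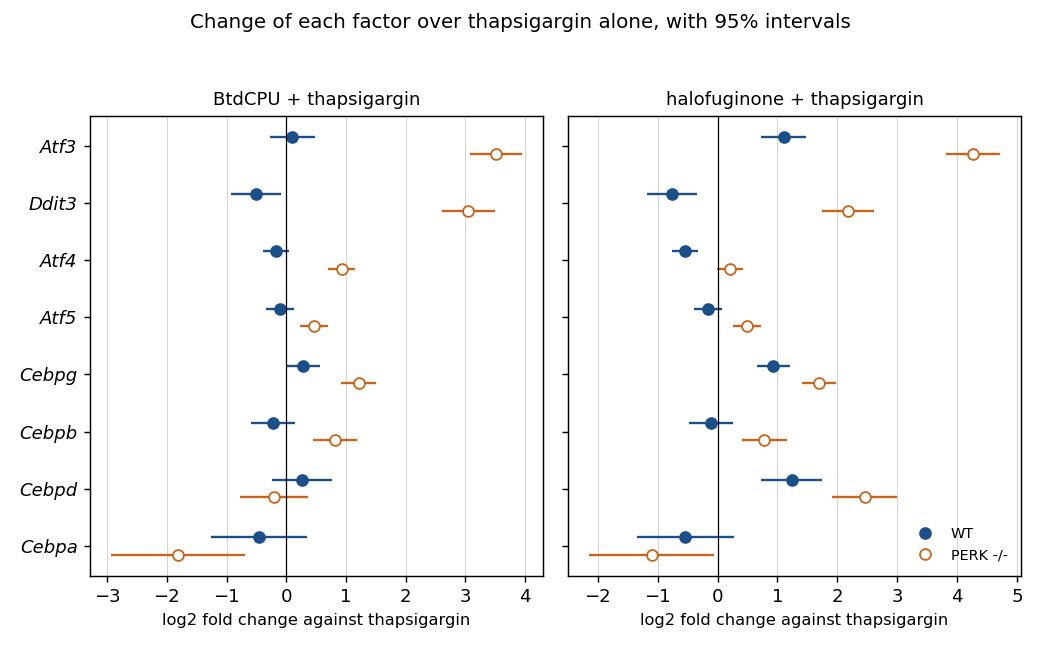
Log2 fold change of each factor when BtdCPU or halofuginone was added, against thapsigargin alone in the same genotype, for WT (filled) and PERK -/- cells (open), with 95% intervals from edgeR. With BtdCPU added, Atf3 and Ddit3 lie at 0.10 and -0.51 in WT and at 3.51 and 3.05 in PERK -/- cells.

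Among the C/EBP genes, Cebpd and Cebpa had patterns of their own. Cebpd was lower with thapsigargin in each genotype, and its levels with halofuginone lay above that: 39.9, 45.6 and 39.1 CPM in WT and 14.2, 16.7 and 13.1 CPM in PERK -/- cells. Against DMSO these were changes of 0.34 (interval -0.15 to 0.82, not called) and 0.74 (SE 0.25, edgeR adjusted p = 0.0173), the latter lost without PERK -/- DMSO replicate 1 (0.63, adjusted p = 0.0843), DMSO replicate 3 (0.60, 0.0934) or halofuginone replicate 2 (0.64, 0.0688). With BtdCPU, Cebpd read 17.4, 35.9 and 14.7 CPM in WT cells, not called (-0.54, adjusted p = 0.111), and the middle value is again replicate 2. Without that library the change was -1.04 (adjusted p = 0.000728), and without WT DMSO replicate 3 it was -0.74 (0.032). Cebpa was low throughout: its WT libraries held 52 to 175 counts and its PERK -/- libraries 2 to 42. All WT libraries of Cebpa lay above all PERK -/- libraries. No treatment moved it past the threshold in WT cells in the 5 comparisons made there, and its changes from DMSO with BtdCPU and halofuginone were -0.05 (interval -0.87 to 0.77) and -0.04 (interval -0.86 to 0.78). Its fall with halofuginone in PERK -/- cells (-1.54, SE 0.61, adjusted p = 0.0418), on 4 to 7 counts, was lost without any library of the 2 groups except DMSO replicate 3 (-1.66 to -1.30, adjusted p from 0.0613 to 0.143). With halofuginone over thapsigargin it was not called (-1.10, adjusted p = 0.0706), but was at -2.19 (0.00309) without replicate 1 of the combined treatment, which held 28 counts.
Cebpb, the C/EBP that carries much of the acute-phase response, varied least over the groups: its highest and lowest group means, 141 and 57.3 CPM, differed 2.46-fold. The ratio was 155 for Atf3, 29.1 for Ddit3, 23.7 for Cebpa, 12.2 for Cebpd, 7.79 for Atf5, 5.04 for Cebpg and 3.91 for Atf4. The SD was at the median over groups 7.76% of the mean for Atf5 and 35.7% for Cebpa, the lowest and the highest among the members.

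**Figure D4:**
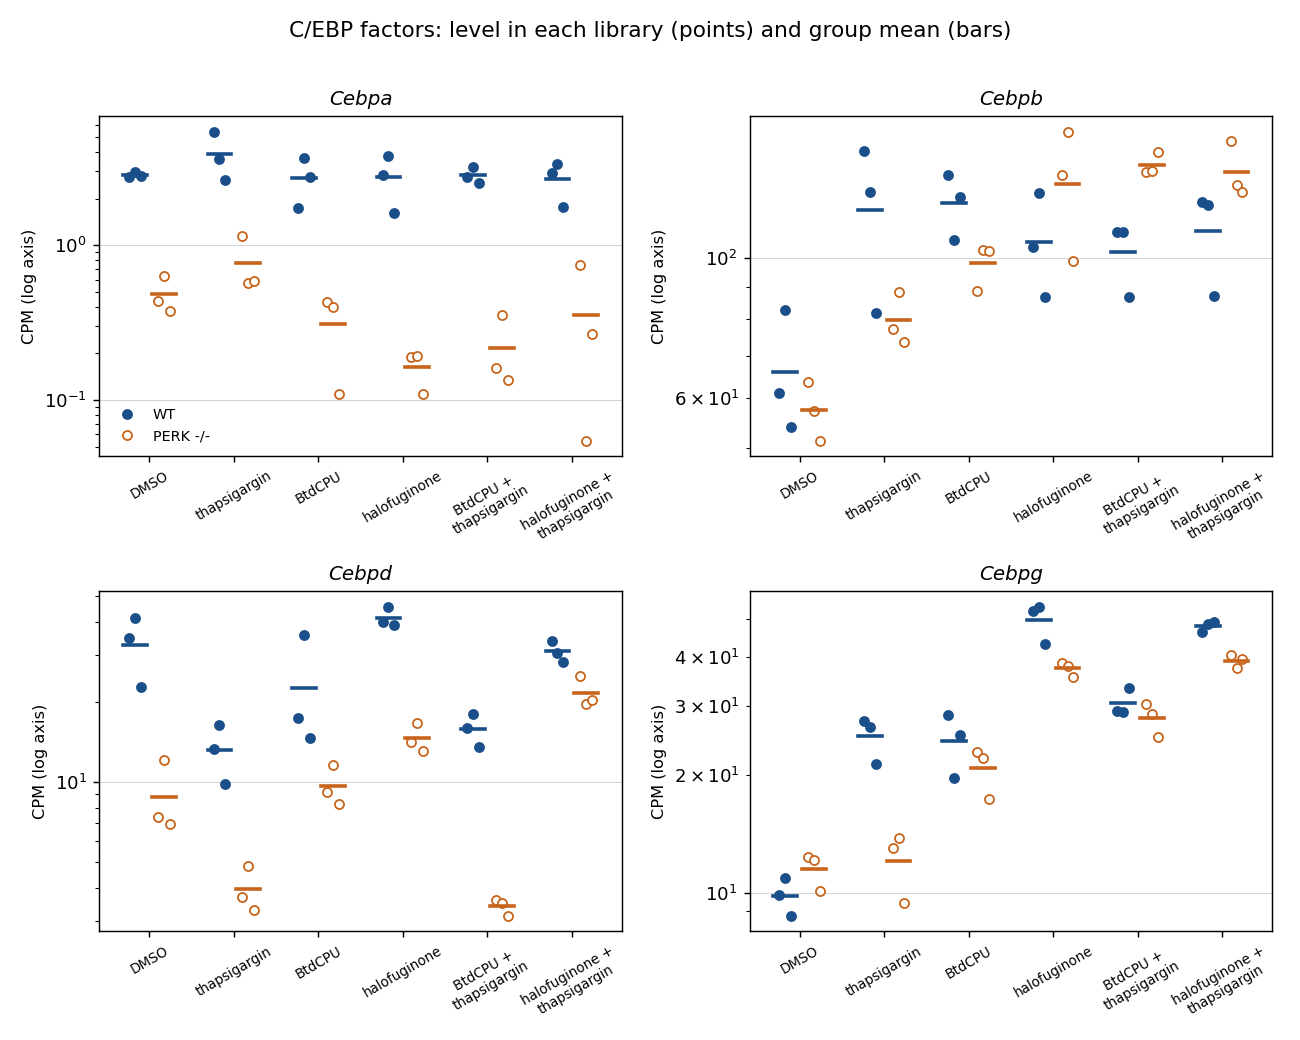
Level of Cebpa, Cebpb, Cebpd and Cebpg in each library (points, CPM on a log axis) and group mean (bars) for 6 treatments in WT (filled) and PERK -/- cells (open), 3 libraries a group. Cebpa lies between 1.60 and 5.41 CPM in WT and between 0.0545 and 1.14 CPM in PERK -/- libraries, and Cebpg is highest with halofuginone, at 49.7 CPM in WT cells.

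Ordered by group mean, Atf3 ran from WT halofuginone with thapsigargin (179 CPM) through WT halofuginone (152), WT BtdCPU with thapsigargin (89.3), PERK -/- halofuginone with thapsigargin (86.0), WT thapsigargin (83.2), PERK -/- halofuginone (62.8), PERK -/- BtdCPU with thapsigargin (51.1), WT BtdCPU (26.2), PERK -/- BtdCPU (12.3), PERK -/- thapsigargin (4.48) and PERK -/- DMSO (2.60) to WT DMSO (1.15). Neighbours from 89.3 down to 51.1 CPM overlapped in their libraries, as did the pair at 26.2 and 12.3, and the other neighbours did not. The Ddit3 order was led by PERK -/- BtdCPU with thapsigargin (396) and WT thapsigargin (345), which overlapped, and the 7 groups from 243 to 98.6 CPM each overlapped the next. Its last 3 places, PERK -/- thapsigargin, PERK -/- DMSO and WT DMSO (47.8, 20.8 and 13.6), were each apart from their neighbours. Atf4 ended in the same 3 groups (721, 582 and 360 CPM), also without overlap. In Atf5 the 5 treated WT groups (273 to 399 CPM) stood above all others without overlap. WT DMSO (124) came next, and overlapped with PERK -/- halofuginone with thapsigargin (115), so no PERK -/- group mean of Atf5 exceeded that of WT DMSO cells. Cebpg fell into steps: the 2 WT groups with halofuginone (49.7 and 47.9) overlapped each other and stood above the PERK -/- pair (39.1 and 37.4), which stood above the 5 groups from 30.4 to 20.8, and those above PERK -/- thapsigargin, PERK -/- DMSO and WT DMSO (12.1, 11.6 and 9.87).

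Over the 12 group means of log2 CPM, Atf3 and Cebpg had a Pearson correlation of 0.96, Atf4 and Ddit3 of 0.91, Atf3 and Ddit3 of 0.90 and Ddit3 and Cebpb of 0.89. Cebpa and Ddit3 had -0.02 and Cebpd and Atf4 -0.28. The points share libraries and library scaling, and the values are a description. Among tested genes whose average log2 CPM reached 2 or more, the patterns most like each member's were those of Arl14ep (0.99) and Gadd45a (0.99, a gene of growth arrest) for Atf3, Ank2 (0.91) and Mtbp (0.91) for Atf4, Srp72 (0.99, a subunit of the signal recognition particle) and Dnajc1 (0.98) for Atf5, and Klf9 (0.97) and Atxn2l (0.96) for Ddit3. For the C/EBP genes they were Armcx4 (0.98) and Pdzrn3 (0.98) for Cebpa, Trib3 (0.95, a pseudokinase induced by CHOP and ATF4) and Slc38a7 (0.95) for Cebpb, Tmem200a (0.95) and Trmt5 (0.95) for Cebpd, and Aebp2 (0.98) and Arl14ep (0.98) for Cebpg.

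Genes known as targets of ATF4 and CHOP were counted in the same comparisons. This list and those below were chosen with earlier results of these data known, so the counts are a description. Of 19 tested, 18 rose with thapsigargin in WT cells and 9 in PERK -/- cells, none fell in either, and the medians were 2.37 and 0.48 (all tested genes: 0.02 and 0.05). Of all tested genes, 24.9% were called higher with thapsigargin in WT and 15.2% in PERK -/- cells. The largest rise in WT cells was that of Car6, a secreted carbonic anhydrase, from 0.0852 to 13.4 CPM. Asns, asparagine synthetase, went from 224 to 848 CPM and Ppp1r15a, which encodes the GADD34 subunit that directs eIF2alpha dephosphorylation, from 17.1 to 328 CPM. The interaction for thapsigargin was called negative in 16 of the 19 and positive in 0 (18.6% and 19.5% of all genes). BtdCPU raised 18 in WT and 17 in PERK -/- cells (12.9% and 2.55% of all genes), and halofuginone 17 and 18 (34.7% and 21.2% of all genes), while Ddit4 and Phgdh fell with halofuginone in WT cells (-0.98 and -0.28). Over thapsigargin in WT cells, BtdCPU changed 0 of 19 (median -0.25). Of all genes 1.29% were called higher and 1.02% lower there, so a count of 0 is near that share. Halofuginone raised 3 (Chac1, Tnfrsf10b and Bbc3) and lowered 9, where 22.8% of all genes were called higher and 22.5% lower. In PERK -/- cells each compound raised 16 of 19 over thapsigargin, with medians of 1.34 for BtdCPU and 1.55 for halofuginone, where 17.3% and 25.2% of all genes were called higher. The exceptions that fell were Ddit4 with each (-0.75 and -0.88), an inhibitor of mTORC1, and Slc3a2 with halofuginone (-0.48), the heavy chain of amino acid transporters.

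Other bZIP genes were read from 2 more lists. Of 7 tested genes among the other ATF, JDP2 and BATF factors, thapsigargin raised 3 in WT cells, Atf6 (log2 change 2.24, SE 0.17), Jdp2 (1.26, SE 0.12) and Atf2 (0.79, SE 0.10), and none fell, where 24.9% of all tested genes were called higher and 22.7% lower. The interaction for thapsigargin was negative for Atf1, Atf6 and Jdp2 (18.6% of all genes). Atf6 encodes a membrane-bound sensor of the unfolded protein response, and Jdp2 a repressor that pairs with Jun proteins. In PERK -/- cells both compounds raised Atf1, Atf6 and Jdp2 over thapsigargin (17.3% of all genes with BtdCPU and 25.2% with halofuginone). Atf6 rose by 1.47 (SE 0.17) with BtdCPU and 1.95 (SE 0.17) with halofuginone. Of 25 tested genes among Jun, Fos, Maf, CREB and related partners, 12 rose and 2 fell with thapsigargin in WT cells (24.9% and 22.7% of all genes). Nfil3, a repressor with a bZIP domain, rose the most (2.96, SE 0.17), and Fosb (-1.55, SE 0.40) and Jun (-1.10, SE 0.13) fell. Halofuginone raised 21 of the 25 in WT cells (median 1.22) and 16 in PERK -/- cells (median 0.73), among them Fosl1 (2.19, SE 0.17) and Maff (2.88, SE 0.19) in WT cells, and Creb3l2 was the 1 that fell in each. Of all genes, 34.7% were called higher and 33.4% lower with halofuginone in WT cells, and 21.2% and 21.0% in PERK -/- cells. BtdCPU in WT cells raised 5 (Fosl2, Mafg, Mafk, Nfe2l1 and Nfil3) and lowered 3 (Jun, Junb and Crem) of the 25, shares near those of all genes (12.9% higher and 9.31% lower).

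Genes that C/EBP factors are known to drive were read in the same way. Of 8 tested acute-phase and inflammatory genes, 6 rose with thapsigargin in WT cells, among them Ptx3 (2.86, SE 0.27) and C3 (2.96, SE 0.37), where 24.9% of all tested genes were called higher. Saa3 had 1.11 CPM with thapsigargin and no count in WT DMSO cells, so no fold is given. In PERK -/- cells none rose and Ptgs2 fell, where 15.2% of all genes were called higher and 12.7% lower. With 8 genes, such counts are near those shares. Il6, Lcn2 and Saa3 were near the floor there, with 0.0898, 0.0358 and 0.215 CPM on thapsigargin. The interaction was negative for C3, Ptx3, Ptgs2 and Cxcl1, where 18.6% of all genes were called lower. Halofuginone raised 6 of 8 in each genotype (34.7% of all genes in WT and 21.2% in PERK -/- cells). Over thapsigargin in PERK -/- cells it raised Il6, Ptx3, Ptgs2, Cxcl1 and Ccl2 and lowered none (25.2% and 27.5% of all genes). There BtdCPU raised Il6, Ptx3 and Ptgs2 and lowered Cxcl1 (17.3% and 18.3% of all genes). Il6 was near the floor with thapsigargin (0.0898 CPM) and with BtdCPU added (0.486 CPM), against 5.36 CPM with halofuginone added. Of 10 adipocyte genes, 5 were tested. Pparg, the nuclear receptor of fat cells, rose with thapsigargin in WT cells from 1.63 to 3.87 CPM. Fabp4 fell there from 4.31 to 1.76 CPM, so each stayed at a low level in that comparison. Of all genes, 24.9% were called higher and 22.7% lower in it. In PERK -/- cells Pparg read 7.86 CPM with DMSO and 5.71 with thapsigargin. It read 20.2 CPM there with halofuginone and 20.3 with BtdCPU and thapsigargin together.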

How the data were processed

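Bulk RNA-seq counts were analysed for 36 libraries, 3 in each of 12 groups read from the labelled genotypes and treatments. The count columns are named Plus or Minus, with treatment initials and a replicate number. Plus was read as WT and Minus as PERK -/-, a reading that the labels do not state. Mean Eif2ak3 was lower in each Minus group. The deposited table of 36930 entries gives each gene an estimated count that is not normalised. The value 0.025 stands for 0 and makes up 50.6% of values, and 2.69% of the others are not whole. Per the labels' protocols, RNA was taken with a QuickRNA mini kit and sequenced strand-specifically on DNBSEQ. Per the submitters' processing notes, the build was GRCm39 and DESeq was used, while the aligner, counter and use of strand are not given in the sources used here. GRCm38 sequences and gene models were therefore matched by symbol alone.

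Here, 27 entries named by a date (0.206% to 0.278% of a library) were left out, 39 repeated symbols (no member) were summed, and expected counts were rounded to whole numbers. Libraries of a group differed beyond sampling noise (chi-square at least 9.66 per degree of freedom). Genes were filtered by filterByExpr (16065 kept) and scaled by TMM, and a quasi-likelihood model of 12 group means was fitted to all libraries in edgeR 4.0.16 (R 4.3.3), with 24 residual degrees of freedom. SE is the size of the log2 change divided by the square root of F, and intervals are 95%. Each of 16 contrasts (11 of 2 groups, 5 interactions) was adjusted by Benjamini-Hochberg, with calls below 0.05. Alternatives were RLE scaling, library size alone, no filter, a replicate term within genotype, only the compared groups, DESeq2 1.42.0, and leaving out each library.

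The members and lists were chosen with earlier results of these data known. Every member is named in every contrast. For each member the 2 genes with the highest correlation over group means of log2 CPM (prior count 2) are named, and from each list the largest rise and fall in WT cells with thapsigargin and the genes behind a count of 5 or fewer. Other list genes printed were picked as examples after their values were seen. Intervals cover the spread between libraries, and at these depths 1 CPM is about 30 counts or more.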

Additional observations from a re-analysis of the deposited data

Results flagged for a closer look

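The results below were marked because the response of PERK -/- cells differed from that of WT cells in a direct test of the difference (edgeR interaction, adjusted p below 0.05). Values are log2 differences, PERK -/- minus WT, and each treatment shares its control groups with another, so that they are not independent of each other.

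For thapsigargin against DMSO the differences were -5.39 for Atf3, -3.46 for Ddit3, -1.66 for Atf4, -1.28 for Cebpg and -0.94 for Atf5. For BtdCPU against DMSO the difference was -2.27 for Atf3. For halofuginone against DMSO they were -2.45 for Atf3, -0.91 for Ddit3, -0.66 for Atf4, -0.65 for Atf5 and -0.64 for Cebpg.

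For BtdCPU added to thapsigargin the differences were 3.55 for Ddit3, 3.41 for Atf3, 1.10 for Atf4, 1.04 for Cebpb, 0.93 for Cebpg and 0.57 for Atf5. For halofuginone added to thapsigargin they were 3.16 for Atf3, 2.94 for Ddit3, 1.22 for Cebpd, 0.89 for Cebpb, 0.76 for Cebpg, 0.74 for Atf4 and 0.66 for Atf5.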

How the results depend on the processing

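Of the 86 calls on a member, none changed direction. In 2 cases a setting other than leaving out a library ended a call: no filter on low counts for Atf4 with thapsigargin in PERK -/- cells, and only the compared groups for Atf3 in the BtdCPU interaction. Leaving out a library ended the call of 9. Of the 42 differences that were not called, 11 gave a call under a setting other than leaving out a library. With a library left out, 12 of the 348 values for these differences gave a call. The cause was not tested.

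Members called for BtdCPU over thapsigargin in WT cells went from 0 to 1 with no filter on low counts. In the BtdCPU interaction, 1 member was called, and 4 with no filter, 0 with only the compared groups, 3 with DESeq2, and 1 to 5 when a library was left out. With thapsigargin in PERK -/- cells 5 members were called, and 3 to 5 when a library was left out, the 3 without DMSO replicate 1 or thapsigargin replicate 2.

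Where a library was left out, 9 small differences that were not called changed sign within these ranges: Cebpd in the thapsigargin interaction (-0.032 to 0.46), Cebpa there (-0.19 to 0.52), Cebpb in the BtdCPU interaction (-0.32 to 0.0062), Cebpb with halofuginone over thapsigargin in WT cells (-0.32 to 0.0761), Cebpa with BtdCPU (-0.32 to 0.19) and with halofuginone (-0.35 to 0.19) in WT cells, and, in PERK -/- cells, Cebpg with thapsigargin (-0.0883 to 0.17), Cebpd with BtdCPU (-0.026 to 0.43) and Cebpd with BtdCPU over thapsigargin (-0.28 to 0.0053).

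The count of all genes called moved most in the BtdCPU comparisons. In WT cells on BtdCPU it was 3571, and 835 with only the compared groups and 1780 to 5062 with a library left out (5062 without WT BtdCPU replicate 2, 1780 without replicate 1). In PERK -/- cells on BtdCPU it was 577, and 1265 with only the compared groups, 881 with DESeq2 and 326 to 405 with a library left out. For BtdCPU over thapsigargin in WT cells it was 372, and 813 with no filter, 23 with only the compared groups, 899 with DESeq2 and 41 to 331 with a library left out (41 without replicate 3 of the combined treatment). In the BtdCPU interaction it was 32, and 314 with no filter, 2 with only the compared groups, 161 with DESeq2 and 14 to 845 with a library left out (845 without WT BtdCPU replicate 2).

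Same-numbered libraries deviated together in every pair (correlations 0.159 to 0.337 and 0.162 to 0.308) for BtdCPU and halofuginone over thapsigargin in WT cells, so there the numbers pair the libraries by the data. With a replicate block no member's call changed in these, and all genes called over thapsigargin with BtdCPU went from 372 to 2080. In the other 9 comparisons of 2 groups the lowest correlation of a pair was -0.0131 to 0.0682, not above the 0.1 asked of every pair, and the libraries were taken to share a number alone, although in 5 of them every library correlated best with its own number. There the replicate block gave 3 members in the BtdCPU interaction (587 genes in all), 5536 genes for BtdCPU in WT and 1577 in PERK -/- cells, and called Cebpb with thapsigargin in PERK -/- cells (0.48, adjusted p = 0.00895), Cebpd with BtdCPU (-0.57, 0.00602) and with halofuginone (0.38, 0.0343) in WT cells, Atf4 (0.21, 0.0391) and Cebpa (-1.13, 0.0284) with halofuginone over thapsigargin in PERK -/- cells, Cebpb in the halofuginone interaction (0.50, 0.0435), and Atf4 (-0.64, 0.00328) and Atf5 (-0.63, 0.017) in the BtdCPU interaction.

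Depth limits Cebpa most, at 2 to 42 counts in PERK -/- libraries, and 3 libraries a group limit every interval.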
